A study of Mus musculus with 3 samples.

Results

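The cell cycle genes described here are 42 genes that mark the steps of cell division, and each was found once among the 34099 genes of the matrices. They were chosen by name: 2 genes of G1 (the gap in which a cell commits to divide), 13 of S phase (DNA replication), 25 of mitosis, and Hmgb2 and Stmn1, which are also made by cells that do not divide. The tissue was mouse liver, measured by single-cell RNA sequencing on the 10x platform. Each captured transcript carries a unique molecular identifier, and these UMIs are what was counted. The mice of all 3 groups had 500 mg/kg of paracetamol (APAP), which kills hepatocytes, and 6 h later an infusion. The infusion was PBS in the first group. It was native mesenchymal stromal cells (MSCs) in the next, and MSCs engineered with bispecific polyvalent peptides in the last. Livers were taken after 4 days. Each group was 1 library, so no spread between animals could be measured and no test was made. Every interval below is a 95% interval for counting error only. The strain, age and sex of the mice and the source of the MSCs are not stated in the labels.

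A dividing cell copies its DNA in S phase with the MCM helicase, the sliding clamp Pcna and the enzymes that make nucleotides, and then separates the copies in mitosis with the kinases Cdk1, Plk1 and the Aurora kinases, the cyclins A and B, the kinetochore and the spindle. Genes of S phase are switched on by E2F factors. Genes of G2 and mitosis are held off in resting cells by the DREAM complex and switched on later by B-Myb and FoxM1, through a promoter element called the cell cycle homology region (CHR) and nearby CCAAT boxes that bind NF-Y. After paracetamol injury, hepatocytes, endothelium and macrophages are known to divide as the liver is rebuilt.

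The promoters are shown because the CHR and E2F-type letters were found mostly in promoters of different roles, although neither was in all promoters of its role. RefSeq promoters of build GRCm38.p6, from 250 bases before to 50 after the start, were at hand for 34 of the 42 members. The CHR was searched as TTTGAA, the CCAAT box as CCAAT, and an E2F-type site as TTTCCCGC, TTTCGCGC, TTTGGCGC or TTTGCCGC, on both strands. Matches of 1 motif may overlap each other. A member was counted if any of its promoters held the letters, whereas the share of all promoters counts each promoter by itself. These 2 measures are thus not of the same unit. The CHR letters were found for 16 of 21 mitotic members (76.2%), for 1 of 11 S-phase members (Mcm2), and in 17.9% of all 32851 promoters. The E2F-type letters were found for 5 of 11 S-phase members (45.5%), for 1 of 21 mitotic members (Cdk1) and in 2.26% of all promoters. The CCAAT letters were found for 19 of 21 mitotic and 9 of 11 S-phase members, against 37.4% of all promoters. Of the 16 mitotic members with the CHR letters, 15 had them within 50 bases of the start. A match describes the letters and is not a measured site. Birc5, Ccnb1, Bub1 and Nusap1, which are also named with values below, and Cenpe had promoters without the CHR letters. The 30 bases around the CHR letters (capitals) follow for 8 of the mitotic members that had them.
Cenpf, chr1:189688067-189688096, minus strand: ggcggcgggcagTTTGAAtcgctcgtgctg
Ube2c, chr2:164769888-164769917, plus strand: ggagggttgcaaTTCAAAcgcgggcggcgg
Cdc20, chr4:118437344-118437373, minus strand: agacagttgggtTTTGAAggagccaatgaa
Ccnb2, chr9:70421533-70421562, minus strand: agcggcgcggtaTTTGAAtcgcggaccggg
Plk1, chr7:122159453-122159482, plus strand: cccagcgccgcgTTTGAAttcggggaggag
Mki67, chr7:135716460-135716489, minus strand: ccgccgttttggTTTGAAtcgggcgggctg
Top2a, chr11:99024195-99024224, minus strand: gctagataaaggTTCAAAtgaaactaggga
Cdk1, chr10:69352910-69352939, minus strand: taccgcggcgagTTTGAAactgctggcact

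The same window is given for the 5 S-phase members with an E2F-type site, which is in capitals. Pclaf encodes a small protein that binds Pcna, and the other members of this set encode subunits of the MCM helicase.
Pclaf, chr9:65890307-65890336, plus strand: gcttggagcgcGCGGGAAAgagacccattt
Mcm5, chr8:75109349-75109378, plus strand: caagaactttcGCGCCAAAacgtccagcct
Mcm7, chr5:138171849-138171878, minus strand: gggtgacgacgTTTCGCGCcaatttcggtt
Mcm3, chr1:20820275-20820304, minus strand: aaacttccgtgGCGGGAAAacttgggaagt
Mcm6, chr1:128359734-128359763, minus strand: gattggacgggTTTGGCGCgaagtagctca

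A promoter of each kind is shown in full over the 250 bases before the start, with CHR, CCAAT and E2F-type letters in capitals. Ube2c had 6 CCAAT matches and 1 CHR match and no E2F-type match in that stretch. Mcm6 had 3 E2F-type and 2 CCAAT matches and no CHR match.
Ube2c, chr2:164769679-164769928, plus strand: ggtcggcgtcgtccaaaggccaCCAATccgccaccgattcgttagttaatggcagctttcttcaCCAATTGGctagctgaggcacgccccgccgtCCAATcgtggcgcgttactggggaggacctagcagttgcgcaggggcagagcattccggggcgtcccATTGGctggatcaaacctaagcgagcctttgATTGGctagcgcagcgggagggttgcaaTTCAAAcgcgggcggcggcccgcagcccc
Mcm6, chr1:128359706-128359955, minus strand: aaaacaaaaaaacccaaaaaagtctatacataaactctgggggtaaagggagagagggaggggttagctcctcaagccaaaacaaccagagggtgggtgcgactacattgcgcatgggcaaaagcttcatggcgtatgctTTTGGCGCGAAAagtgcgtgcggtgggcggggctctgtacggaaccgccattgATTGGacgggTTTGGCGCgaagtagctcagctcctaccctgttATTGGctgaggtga

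The libraries held 82247448, 84950721 and 62564254 UMIs for PBS, native MSC and engineered MSC, and 9537, 9179 and 9129 cells passed the filters. The median cell held 5783, 5673 and 3667 UMIs. The 3 libraries shared 39 to 46 cell barcodes in pairs. Cells were clustered without the members and without genes correlated with them, with the aim of keeping dividing cells with their lineage. Of 35 clusters, 33 took a name from marker genes. Names stand for cells resembling a type. Marker lists were higher inside their lineage than outside it for all their genes in 9 of the 12 lineages checked. They were for 6 of 8 in erythroid-like cells (2 stood at 0), 12 of 16 in neutrophil-like cells and 18 of 20 in stellate-or-fibroblast-like cells. The same lists named the clusters, so these counts describe the lineages and do not test the names. A level is given in CPM, the share of a gene among all UMIs summed over a lineage in a library, scaled to a common total. Most lineages lay partly in different clusters in different libraries, and the shares of these clusters stand beside the results.

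Mitotic members were higher in the livers given MSCs, and the summed S-phase members were not. Summed over all kept cells, the 25 mitotic members stood at 311 CPM in PBS, 1026 in native MSC and 817 in engineered MSC. The 13 S-phase members stood at 657, 589 and 566 CPM. For each mitotic UMI there were 2.11 S-phase UMIs in PBS, 0.574 in native MSC and 0.693 in engineered MSC. A dividing cell was counted as one with UMIs of at least 3 different mitotic members. By this measure 834 cells of PBS were dividing (8.74%, 8.19 to 9.33), 1243 of native MSC (13.5%, 12.8 to 14.3) and 833 of engineered MSC (9.12%, 8.54 to 9.73). Deeper cells pass this rule more easily, so each cell was also thinned to 1500 UMIs, which left out 1050, 699 and 1447 shallower cells. The shares were then 1.76% in PBS, 5.86% in native MSC and 4.43% in engineered MSC. At that depth the share was 3.34 times (2.77 to 4.04) that of PBS in native MSC and 2.52 times (2.07 to 3.08) in engineered MSC. Many cells lie near the rule: 789, 988 and 892 cells had exactly 2 mitotic members, and 302, 348 and 271 exactly 3.

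Free RNA and doublets bear on this measure. Plasmacytoid-dendritic-like cells, which are not known to divide in the liver, gave 0 of 141, 1 of 57 and 1 of 101 cells, at median depths of 5379, 6150 and 6878 UMIs, and none after thinning. The 0 of 138 thinned PBS cells allows a share of up to 2.17%. Of barcodes that met the dividing rule, 13.7% in PBS, 20.1% in native MSC and 20.6% in engineered MSC were removed as called doublets, against 8.11%, 8.23% and 7.77% of other barcodes.

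**Figure D1:**
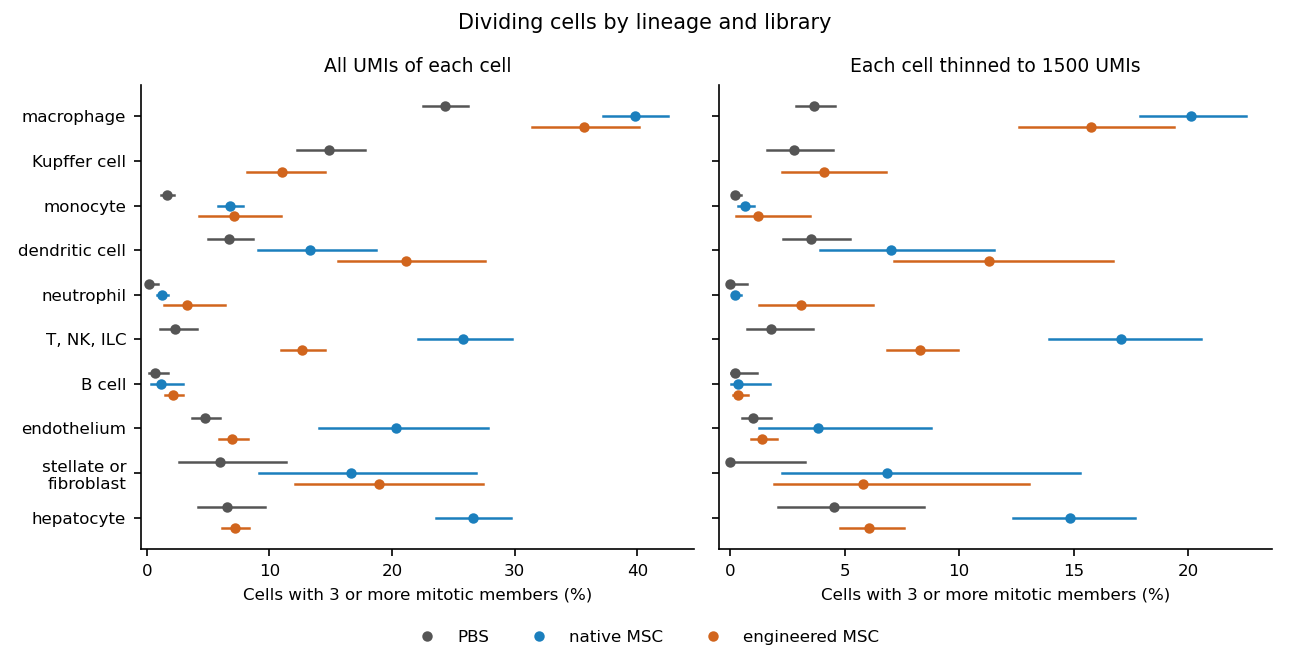
Share of cells with UMIs of at least 3 mitotic members (x axis, %) in each lineage and library with at least 50 cells, with all UMIs (left) and with each cell thinned to 1500 UMIs (right). Points are shares and bars exact binomial 95% intervals, and lineages are named as resembling a type. After thinning, macrophage-like cells went from 3.65% in PBS to 20.2% in native MSC and 15.8% in engineered MSC.

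The lineages that held the dividing cells differed between the libraries. In PBS, 63.7% (60.3 to 66.9) of dividing cells were macrophage-like, 12.0% Kupffer-cell-like and 7.67% endothelium-like, and lymphoid (T, NK or ILC-like) cells were 1.2% and hepatocyte-like cells 2.76%. In native MSC, macrophage-like cells were 43.6% (40.8 to 46.4) of them, hepatocyte-like cells 17.9%, monocyte-like cells 13.5% and lymphoid cells 10.9%. In engineered MSC, 4 lineages held most of the dividing cells. These were macrophage-like cells at 20.8%, lymphoid cells at 20.3%, hepatocyte-like cells at 19.2% and endothelium-like cells at 15.2%. Kupffer-cell-like cells were 5.28%, dendritic-like cells 4.92%, B-cell-like cells 4.08% and plasma-cell-like cells 3.00%. Of the 45 plasma-cell-like cells of engineered MSC 25 met the rule, at a median depth of 14974 UMIs, and 7 after thinning. At an equal depth of 1500 UMIs the makeup was different, with 149, 497 and 340 dividing cells. Macrophage-like cells were then 50.3% of them in PBS, 48.3% in native MSC and 21.8% in engineered MSC, and lymphoid cells were 4.70%, 17.7% and 30.9%, the largest part in engineered MSC. Hepatocyte-like cells were 6.04%, 21.5% and 21.2%, monocyte-like cells 2.68%, 3.02% and 0.882%, and endothelium-like cells 7.38%, 1.01% and 7.06%. Dendritic-like cells were 16.1%, 2.82% and 6.18%. Macrophage-like cells were 22.9%, 14.8% and 5.31% of all kept cells, so they were a larger part of the dividing cells than of all cells in each library at either depth. Monocyte-like cells, at 23.4%, 26.9% and 2.78% of all cells, were a smaller part of the dividing ones.

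**Figure D2:**
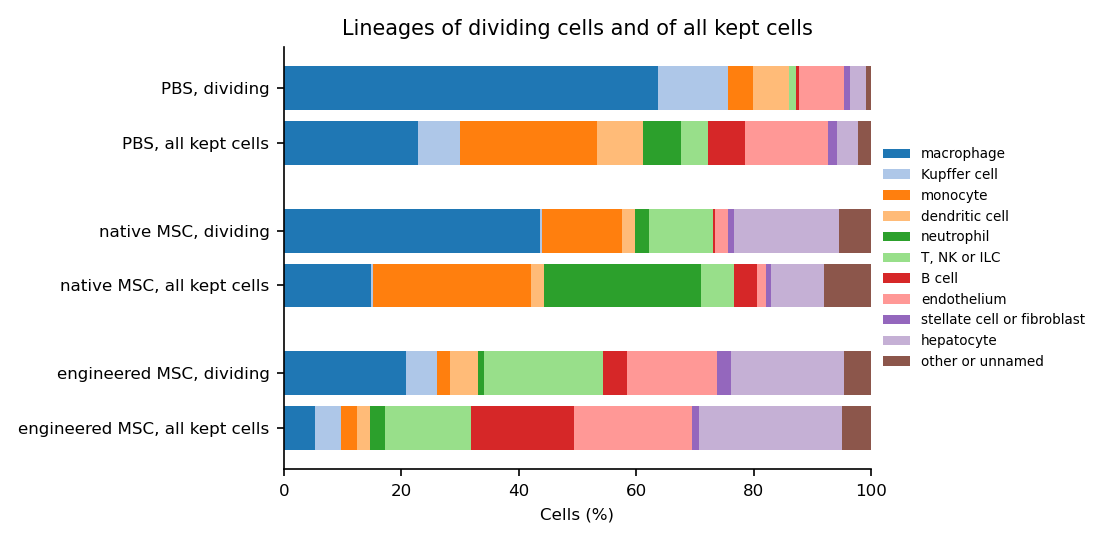
Lineages (colours) as a percentage of dividing cells and of all kept cells in each library (x axis, %). Macrophage-like cells were 63.7% of dividing cells in PBS and 20.8% in engineered MSC, where lymphoid and hepatocyte-like cells took 20.3% and 19.2%; all UMIs were used, and at 1500 UMIs a cell these 4 values are 50.3%, 21.8%, 30.9% and 21.2%.

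In macrophage-like cells the mitotic members were higher after MSCs while the S-phase members lay near PBS on the whole. In native MSC all 25 mitotic members were more than 2-fold above PBS, with a median log2 ratio of 2.44, where 7.9% of the 14160 genes measured in these cells were that much higher and their median was 0.01. In engineered MSC 24 of 25 were, with a median of 2.03, against 8.35% of genes and a median of 0.06. The 13 S-phase members had medians of 0.08 and 0.31, and 2 and 3 of them were over 2-fold higher. The median depth of these cells was nearly equal, at 12108, 12234 and 12338 UMIs. Their dividing share was 24.3%, 39.8% and 35.7%, and after thinning 3.65% (2.88 to 4.55), 20.2% (17.9 to 22.5) and 15.8% (12.6 to 19.4). Native MSC was 5.52 times (4.25 to 7.26) and engineered MSC 4.33 times (3.09 to 6.04) PBS, and the ratio of engineered to native MSC, 0.783 (0.595 to 1.02), held 1 in its interval.

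Among the mitotic members of macrophage-like cells, Cenpf, a kinetochore protein, stood at 6.68 CPM in PBS, 74.6 in native MSC and 43.2 in engineered MSC, which is 11.2-fold (9.63 to 13) and 6.46-fold (5.40 to 7.73) above PBS. Ube2c, the ubiquitin-conjugating enzyme of the anaphase-promoting complex, stood at 26.6, 247 and 168 CPM, 9.27-fold (8.6 to 10.0) and 6.31-fold (5.77 to 6.90) above PBS. Cdc20, the activator of that complex, stood at 6.02, 53.5 and 31.4 CPM. The order PBS, engineered MSC, native MSC held for all 25 mitotic members. Cyclin B2 (Ccnb2) stood at 6.91, 61.3 and 35.2 CPM, and cyclin B1 (Ccnb1) at 8.43, 61.3 and 45.1 CPM. Nusap1, which bundles spindle microtubules, stood at 6.49, 56.0 and 43.3 CPM, and the mitotic kinase Plk1 at 5.07, 41.5 and 29.0 CPM. All of these genes were at least 5.09-fold above PBS in engineered MSC, the least being Ccnb2. The next 3 genes differed less. Mki67, the common marker of proliferating cells, stood at 31.6, 169 and 129 CPM (5.33-fold, 4.96 to 5.74, and 4.08-fold, 3.73 to 4.46). Top2a, which untangles DNA, stood at 44.0, 202 and 169 CPM, and the kinase Cdk1 at 44.5, 133 and 115 CPM, 2.98-fold and 2.58-fold above PBS.

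The S-phase members of the same cells did not go one way. Pcna stood at 326, 216 and 317 CPM, 1.51 times lower (1.45 to 1.57) in native MSC than in PBS, and 1.03 times lower (0.982 to 1.07) in engineered MSC. Among the helicase subunits, Mcm2 stood at 61.8, 42.3 and 59.4 CPM, Mcm3 at 87.2, 71.7 and 82.9 CPM and Mcm6 at 63.1, 50.2 and 68.2 CPM, each lowest in native MSC. Mcm5 stood at 46.4, 48.9 and 57.3 CPM, a ratio of 1.05 (0.968 to 1.15) between native MSC and PBS. The S-phase members over 2-fold higher in native MSC were Pclaf, at 58.4, 202 and 222 CPM, and Tyms, which makes thymidylate, at 16.8, 41.5 and 34.4 CPM. In engineered MSC Rrm2 joined them. Rrm2, a subunit of ribonucleotide reductase, stood at 18.6, 34.0 and 42.9 CPM, and geminin (Gmnn), which blocks a second round of replication, at 84.8, 121 and 124 CPM. Cells with at least 3 S-phase members were 11.6%, 13.6% and 15.4% after thinning. Hmgb2, a chromatin protein, stood at 114, 475 and 416 CPM, and Stmn1, which takes microtubules apart, at 109, 341 and 294 CPM. Ccnd1, cyclin D1 of G1, went the other way, at 223, 95.4 and 114 CPM.

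The dividing macrophage-like cells themselves differed between libraries. In dividing cells the mitotic members summed to 963 CPM in PBS, 3670 in native MSC and 2682 in engineered MSC, and the S-phase members to 1659, 1600 and 1912 CPM. In the cells that did not meet the rule the mitotic members summed to 81.4, 94.3 and 87.7 CPM. At least 10 different mitotic members were found in 5.49%, 19.3% and 19.8% of all macrophage-like cells. Dividing cells were deeper than the rest, with medians of 21074, 18760 and 24957 UMIs against 10370, 9792 and 9370. The macrophage markers summed to 35737, 29286 and 27355 CPM in dividing cells and 39915, 39012 and 41193 CPM in the others. T-cell, endothelial and neutrophil markers stood at or below 431 CPM in the dividing cells of each library. Monocyte markers differed more between libraries, at 334, 1807 and 1119 CPM in dividing cells and 543, 3702 and 1949 CPM in the others. Hepatocyte markers stood at 107, 343 and 948 CPM in dividing cells and 153, 550 and 1825 CPM in the others. Their part in the result was not tested.

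Macrophage-like cells of PBS lay in cluster 2 (92%) and those of native and engineered MSC in cluster 3 (97.5% and 96.5%). Although the members were left out of the clustering, Ube2c, Birc5, Top2a, Pclaf and Mki67 were among the leading genes of cluster 3. Cluster 3 held 175 PBS cells, with a median of 2112 UMIs. Within it the mitotic medians were 3.88 in native MSC and 3.38 in engineered MSC, and the S-phase medians 1.23 and 1.38. When cell cycle genes were kept in the clustering, the mitotic medians were 0.76 and 0.39 and the S-phase medians -0.46 and -0.44. In that clustering 18.1%, 63.1% and 59.0% of the dividing macrophage-like cells of PBS, native MSC and engineered MSC fell in clusters without a name.

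**Figure D3:**
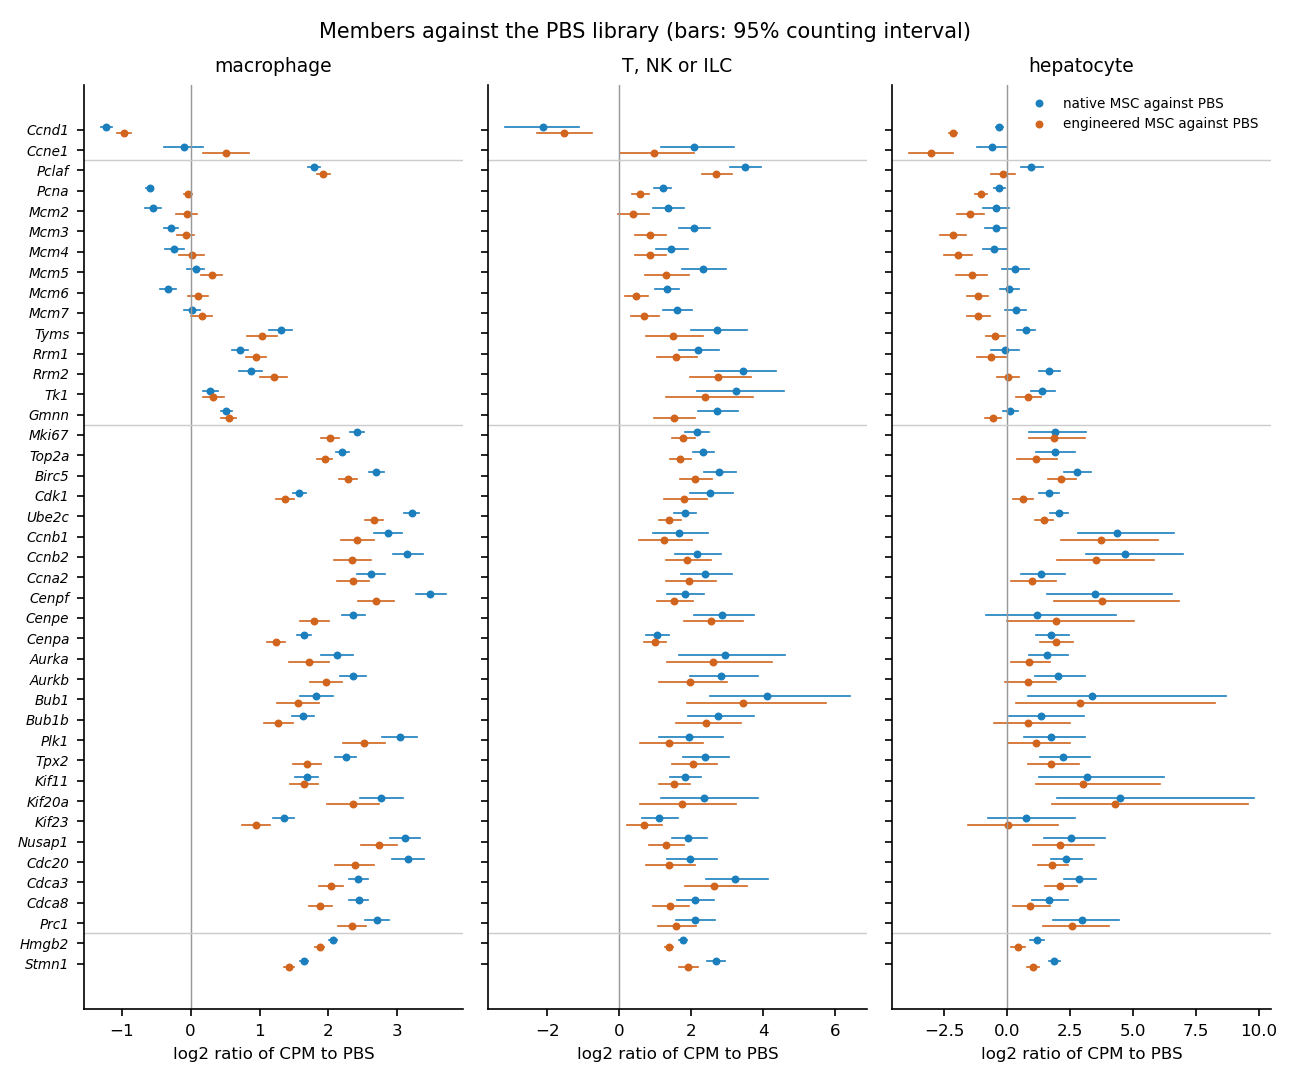
Ratio to the PBS library of each member (y axis, ordered G1, S phase, mitotic, also made outside division) in 3 lineages (x axis, log2 ratio of CPM), for native and engineered MSC. Points are ratios and bars 95% counting intervals. In macrophage-like cells all mitotic members lie right of 0 and S-phase members lie around 0, in lymphoid cells S-phase and mitotic members alike lie right of 0, and in hepatocyte-like cells of engineered MSC 11 of 13 S-phase members lie left of 0.

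In lymphoid cells S-phase and mitotic members were higher together. In native MSC all 13 S-phase and all 25 mitotic members were over 2-fold above PBS, with medians of 2.18 and 2.16, where 8.32% of 10509 genes were that much higher and the median gene was at -0.11. In engineered MSC 7 of 13 and 23 of 25 were, with medians of 1.28 and 1.74, against 9.82% of genes. Engineered MSC was below native MSC for all 13 S-phase members (median -0.87, 4 of them over 2-fold) and all 25 mitotic members (median -0.44, none over 2-fold), against 3.43% of genes over 2-fold lower. The dividing share was 2.26%, 25.8% and 12.6% of 442, 523 and 1336 cells, and after thinning 1.77% (0.715 to 3.62), 17.1% (13.9 to 20.6) and 8.28% (6.82 to 9.94). Cells with at least 3 S-phase members were 2.03%, 23.1% and 7.41% after thinning.

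Pclaf had one of the largest differences in lymphoid cells, with 33.5 CPM in PBS, 374 in native MSC and 216 in engineered MSC, 11.2-fold (8.43 to 15.1) and 6.45-fold (4.87 to 8.74) above PBS. Rrm2 stood at 8.70, 94.1 and 58.3 CPM, 10.8-fold (6.24 to 20.5) above PBS in native MSC. The checkpoint kinase Bub1 stood at 2.01, 34.3 and 21.9 CPM, with 3 UMIs in PBS and a ratio of 17.1 (5.71 to 84.1) in native MSC. These genes were lowest in PBS and highest in native MSC, as were the others of this lineage. Mki67 stood at 59.6, 264 and 203 CPM, Top2a at 69.6, 350 and 224 CPM, and Cdk1 at 18.1, 104 and 63.2 CPM. Pcna stood at 118, 271 and 177 CPM and Mcm5 at 17.4, 87.0 and 42.4 CPM. Between engineered and native MSC, Mcm3 was 2.32 times lower (2.03 to 2.65) and Gmnn 2.31 times lower (2.01 to 2.66), while Mki67 was 1.30 times lower (1.19 to 1.42). Hmgb2 stood at 468, 1602 and 1213 CPM, and Stmn1 at 86.3, 552 and 326 CPM. Ccnd1 was low in lymphoid cells, at 17.4, 4.01 and 5.96 CPM, and was the exception in direction.

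Dividing lymphoid cells carried many members at a time, with a median of 20 mitotic members in the 10 dividing cells of PBS, 16 in native MSC and 14 in engineered MSC. T, NK and ILC markers stood at 6343 CPM in dividing and 7360 in other cells of native MSC, and at 5136 and 6512 CPM in engineered MSC. Dividing cells were deeper, with medians of 10186 against 4633 UMIs in native MSC and 9154 against 3921 in engineered MSC. The cells lay in 4 clusters of unlike makeup: cluster 14 held 59.7%, 68.6% and 17.7% of them, and cluster 17 held 34.2% of those in engineered MSC and 0.382% of those in native MSC. Within cluster 14 the thinned share was 1.69%, 19.7% and 24.2%, and engineered MSC was above native MSC for the mitotic median (0.23) and close to it for the S-phase median (-0.09). There 23 of 25 mitotic members were higher and 10 of 13 S-phase members lower in engineered than in native MSC. Clusters 15 and 23, which also held cells of all 3 libraries, had lower thinned shares in engineered than in native MSC. In cluster 15 these were 7.51% (5.37 to 10.2) against 15.7% (8.11 to 26.4), the latter on 11 of 70 cells. In cluster 23 they were 5.32% (1.75 to 12.0) against 7.87% (3.22 to 15.5), on 5 of 94 and 7 of 89 cells. The intervals overlapped in both, as they did in cluster 14. The order of the mitotic members in the whole lineage was thus turned in cluster 14. The order of the shares was kept in clusters 15 and 23, within overlapping intervals.

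Hepatocyte-like cells had mitotic members above PBS in both MSC libraries, and S-phase members below PBS in engineered MSC. In native MSC 24 of 25 mitotic members were over 2-fold higher (median 2.05), where 7.51% of genes were and the median gene was at -0.30. In engineered MSC 18 of 25 were (median 1.86), against 13.6% of genes. Of the S-phase members, 7 of 13 were over 2-fold below PBS in engineered MSC (median -1.04), against 9.96% of genes, and the native MSC median was 0.12. Against native MSC, engineered MSC was over 2-fold lower for 9 of 13 S-phase members (median -1.22) and 3 of 25 mitotic members (median -0.55), where 4.64% of genes were. The dividing share was 6.53%, 26.6% and 7.18% of 352, 835 and 2229 cells, at medians of 1812, 5435 and 1631 UMIs. After thinning, which left out 154, 115 and 1043 cells, it was 4.55% (2.10 to 8.45), 14.9% (12.3 to 17.7) and 6.07% (4.78 to 7.58). The thinned share of native MSC was 3.27 times (1.66 to 7.34) that of PBS, and that of engineered MSC 1.34 times (0.666 to 3.04).

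Birc5 (survivin, of the chromosomal passenger complex) stood at 19.6 CPM in PBS, 134 in native MSC and 86.5 in engineered MSC, 6.83-fold (4.75 to 10.2) and 4.42-fold (3.06 to 6.60) above PBS. Ccnb2 stood at 1.96, 50.8 and 22.8 CPM and Ccnb1 at 1.96, 40.2 and 25.6 CPM, on 3 UMIs each in PBS. For Ccnb2 the ratio of native MSC to PBS was 26.0 with a wide interval, 8.81 to 127. All 3 genes were lowest in PBS. Ube2c stood at 42.4, 175 and 116 CPM, Cdc20 at 16.3, 81.8 and 56.3 CPM, and Cdca3, which helps cells enter mitosis, at 15, 108 and 65.1 CPM. Mki67 was low in hepatocyte-like cells, at 5.22, 19.3 and 19.0 CPM, as was Top2a at 10.4, 38.4 and 23.0 CPM. Cdk1 stood at 38.5, 122 and 59.2 CPM.

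The S-phase members of hepatocyte-like cells were lowest in engineered MSC for 11 of 13. Mcm3 stood at 40.5, 29.3 and 9.16 CPM, 4.41 times lower (3.08 to 6.31) in engineered MSC than in PBS, and Mcm4 at 32.0, 22.4 and 8.23 CPM, 3.88 times lower (2.61 to 5.74). Mcm5 stood at 23.5, 29.0 and 8.77 CPM and Pcna at 128, 103 and 62.3 CPM. Rrm2 was instead highest in native MSC, at 35.2, 113 and 36.0 CPM. The cyclins of G1 were low in engineered MSC as well, with Ccnd1 at 418, 337 and 92.7 CPM, 4.51 times below PBS (4.05 to 5.03), and Ccne1, cyclin E1, at 21.5, 14.1 and 2.66 CPM, 8.11 times below PBS (4.52 to 14.9). Stmn1 stood at 112, 408 and 227 CPM and Hmgb2 at 77.7, 176 and 104 CPM. In dividing hepatocyte-like cells the mitotic members summed to 1322, 2669 and 3505 CPM and the S-phase members to 1775, 1373 and 902 CPM. These cells were picked by the mitotic members, so the mitotic sums depend on that rule.

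Hepatocyte-like cells of PBS and native MSC lay in cluster 9 (98.3% and 98.0%), which held 6.59% of those of engineered MSC. The others of engineered MSC were in cluster 7 (67.3%) and cluster 16 (26.1%), at medians of 2207 and 772 UMIs. Within cluster 9 the thinned share was 4.66% in PBS, 14.6% in native MSC and 22.8% (15.5 to 31.6) in engineered MSC, and in cluster 7 of engineered MSC it was 4.05%. The medians within cluster 9 for engineered MSC against native MSC were 1.06 for mitotic and -0.12 for S-phase members, so that the lower mitotic members of engineered MSC were not found there. Against PBS the S-phase median there was -0.14. Mitochondrial UMIs were a median of 0.16%, 0.08% and 0.39% in dividing and 0.18%, 0.09% and 0.86% in other hepatocyte-like cells. Hepatocyte markers stood at 10395, 24265 and 23913 CPM in dividing cells and 14570, 32761 and 30101 CPM in others, and macrophage markers at 2975, 3409 and 3919 CPM against 5426, 5088 and 5563 CPM. Their part in the result was not tested.

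**Figure D4:**
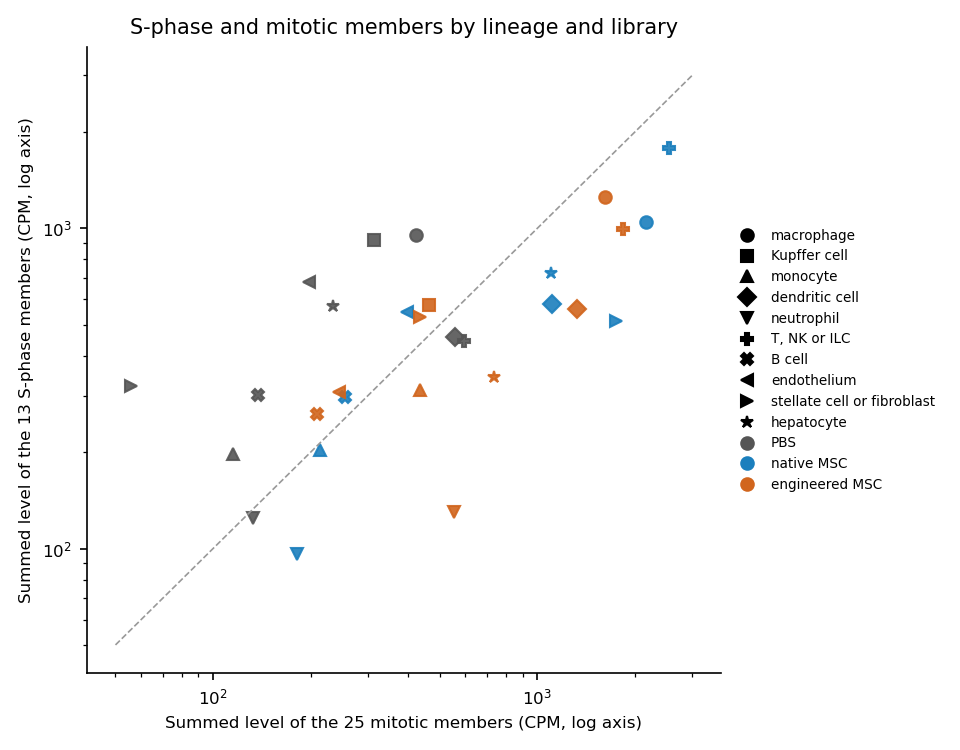
Summed level of the 13 S-phase members (y axis, CPM, log scale) against that of the 25 mitotic members (x axis, CPM, log scale) for each lineage (shape) and library (colour) with at least 50 cells; the dashed line marks equal sums. Macrophage-like cells lie above the line in PBS (950 against 421 CPM) and below it in native MSC (1048 against 2170 CPM).

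Kupffer-cell-like cells, the resident macrophages, were compared only between engineered MSC and PBS, since native MSC had 28. Of the S-phase members 12 of 13 were lower in engineered MSC (median -0.76, 4 over 2-fold, against 5.73% of genes). Of the mitotic members 22 of 25 were higher (median 0.67, 8 over 2-fold, against 13.3% of genes). Mcm5 stood at 50.1 CPM in PBS and 16.8 in engineered MSC, 2.98 times lower (2.15 to 4.24). Nusap1 stood at 2.48 and 13.6 CPM, 5.49-fold higher (2.82 to 11.3), and Ccnb2 at 4.00 and 16.8 CPM. Pcna stood at 254 and 149 CPM and Cdk1 at 36.8 and 37.2 CPM. Mki67 stood at 21.9 and 40.0 CPM and Top2a at 27.6 and 44.0 CPM. The dividing share was 14.9% in PBS and 11.0% in engineered MSC with all UMIs, at medians of 6146 and 4469 UMIs, and 2.78% (1.60 to 4.47) and 4.11% (2.26 to 6.79) after thinning, so the direction turned with depth and the thinned intervals overlapped. After thinning, cells with at least 3 S-phase members were 13.2% and 4.69%. S-phase and mitotic members thus lay on opposite sides of PBS here, as in hepatocyte-like cells of engineered MSC. Cluster 13 held 91.1% of the PBS and 70.2% of the engineered MSC cells, and cluster 25 the rest. The marker score of cluster 25 was 2.59 for Kupffer cells and 1.76 for endothelium. Endothelial markers stood at 992 CPM in dividing and 1044 in other Kupffer-cell-like cells of PBS. In engineered MSC they stood at 3430 and 3924 CPM. Their part in the result was not tested.

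Endothelium-like cells showed lower replication genes in engineered MSC and little difference in mitotic ones. All 13 S-phase members were below PBS (median -0.94, 6 over 2-fold, against 9.05% of genes), and of the 25 mitotic members 12 were above and 13 below. Mcm5 stood at 34.4, 28.0 and 8.79 CPM in PBS, native MSC and engineered MSC, 3.92 times lower (3.13 to 4.93) in engineered MSC than in PBS. Mcm2 stood at 64.6, 44.9 and 18.8 CPM, Mcm7 at 46.4, 49.1 and 14.1 CPM, and Pcna at 176, 114 and 91.6 CPM. Cenpa, the histone H3 form of centromeres, was an exception among the mitotic members, at 12.3, 41.4 and 67.3 CPM, 5.47-fold (4.43 to 6.80) above PBS. In native MSC 11 of 24 measured mitotic members were over 2-fold above PBS (median 0.97), against 7.06% of genes, on 143 cells. Mki67 stood at 10.9, 28.0 and 12.6 CPM, Top2a at 22.1, 34.3 and 14.4 CPM, Cdk1 at 29.5, 40.6 and 20.5 CPM and Ccnd1 at 626, 488 and 470 CPM. Engineered MSC was over 2-fold below native MSC for 7 of 13 S-phase and 13 of 25 mitotic members, against 7.53% of genes.

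The dividing share of endothelium-like cells was 4.70%, 20.3% and 6.97% with all UMIs, and after thinning 0.984% (0.492 to 1.75), 3.85% (1.26 to 8.75) and 1.38% (0.883 to 2.04). Cluster 10 held 76.6% of the PBS and 60.1% of the native MSC cells, and cluster 8 held 79.2% of the engineered MSC cells and none of PBS. Within cluster 10 the thinned shares were 0.781%, 5.81% and 9.23% (3.46 to 19.0), so the engineered MSC share of this lineage depends on which cluster is read. In engineered MSC, 56.2% of the mitotic UMIs of the lineage were in dividing cells, against 67.4% in PBS and 82.9% in native MSC.

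Dendritic-like cells lay in 1 cluster in all 3 libraries, at medians of 5932, 8623 and 8714 UMIs. Of 25 mitotic members 16 were over 2-fold above PBS in native MSC (median 1.13, against 2.86% of genes) and 16 in engineered MSC (median 1.24, against 8.19% of genes), and the S-phase medians were 0.33 and 0.30. Ube2c stood at 49.2, 130 and 194 CPM, 2.63-fold (2.19 to 3.16) and 3.95-fold (3.33 to 4.68) above PBS. Cdc20 stood at 9.34, 30.2 and 45.8 CPM and Cenpf at 11.9, 35.5 and 53.6 CPM. In these 3 genes engineered MSC was the highest library, which was not so in macrophage-like cells. Mki67 stood at 50.7, 82.5 and 93.3 CPM, Top2a at 68.1, 119 and 121 CPM, Cdk1 at 21.9, 46.6 and 51.9 CPM and Pcna at 109, 102 and 110 CPM. Rrm2 stood at 11.7, 27.0 and 21.5 CPM and Mcm5 at 18, 27.0 and 35.3 CPM. The dividing share was 6.66%, 13.3% and 21.1% with all UMIs, and after thinning 3.53% (2.28 to 5.21), 7.04% (3.90 to 11.5) and 11.3% (7.13 to 16.7). When cell cycle genes were kept in the clustering, the mitotic median of engineered MSC against PBS was -0.29.

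In monocyte-like cells the dividing share was 1.62%, 6.80% and 7.09% with all UMIs and 0.184%, 0.614% and 1.2% after thinning, on 4, 15 and 3 cells. The libraries differed in clusters: cluster 0 held 73.2%, 37.6% and 28.7% of these cells, and cluster 1, led by genes that include the granule proteases Elane, Prtn3 and Ctsg, held 26.8%, 62.4% and 37.0%. Cluster 28 held 34.3% of the engineered MSC cells and none of the others. Of 25 mitotic members 21 were over 2-fold above PBS in native MSC (median 1.75, against 4.84% of genes), and in engineered MSC 19 of 22 measured (median 3.07, against 6.24% of genes), while the S-phase medians were 0.18 and 0.97. Top2a stood at 4.27, 13.6 and 65.0 CPM and Mki67 at 3.66, 12.3 and 51.8 CPM, 14.1-fold (10.1 to 20.0) above PBS in engineered MSC. Cyclin A2 (Ccna2) stood at 0.407, 3.94 and 13.7 CPM. These 3 genes were lowest in PBS and highest in engineered MSC. Pcna stood at 96.7, 69.3 and 98.7 CPM. Cenpa was no higher after MSCs, at 57.8, 44.2 and 43.5 CPM. The dividing cells of native MSC carried neutrophil and granule markers at 12554 CPM, against 1570 CPM in the other monocyte-like cells of that library and 803 CPM in dividing ones of PBS, and their part in the result was not tested. Engineered MSC had 254 monocyte-like cells, of which 18 met the dividing rule and held 79.3% of the mitotic UMIs.

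Neutrophil-like cells, which do not divide once mature, had low S-phase sums, at 124, 96.1 and 130.5 CPM. The dividing share was 1 of 612, 30 of 2451 and 8 of 243 cells, and after thinning 0 of 497 (which allows up to 0.604%), 0.182% and 3.08%. Cluster 4 held 85.1%, 46.6% and 29.2% of the cells and cluster 6 held the others. Ube2c stood at 0.748, 17.2 and 58.8 CPM and Top2a at 1.5, 7.77 and 34.4 CPM, on 1 and 2 UMIs in PBS. Kif23, a motor of cytokinesis, was the exception, at 83.0, 48.9 and 103 CPM with Mki67 at 7.48, 12.6 and 37.3 CPM. The 25 mitotic members summed to 132, 182 and 555 CPM, and in engineered MSC 63.6% of these UMIs lay in the 8 dividing cells. Hmgb2 alone stood above that sum in each library, at 497, 1001 and 1160 CPM. Pcna stood at 60.6, 42 and 34.4 CPM. Cdk1, Mcm5 and Rrm2 stood at or below 18.6 CPM in each library.

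B-cell-like cells had a dividing share of 0.673%, 1.15% and 2.12% with all UMIs and 0.207%, 0.313% and 0.330% after thinning. They shared almost no cluster between engineered MSC and the other libraries: cluster 12 held 99.7% of PBS and 98.6% of native MSC cells, and cluster 5 held 99.3% of engineered MSC cells. Top2a stood at 5.66, 25.5 and 11.5 CPM, Mki67 at 1.42, 14.8 and 10.8 CPM and Ccnd1 at 11.3, 7.42 and 8.75 CPM. Cenpa stood at 70.8, 85.9 and 64.8 CPM, far above their Mki67, and Pcna at 95.6, 57.3 and 79.4 CPM. Hmgb2 stood at 210, 262 and 206 CPM.

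Stellate-or-fibroblast-like cells were compared between engineered MSC and PBS, with 111 and 135 cells. All 14 mitotic members with at least 20 UMIs were over 2-fold higher in engineered MSC (median 2.93, against 10.6% of genes), and the other 11 of 25 had too few UMIs. A member enters this count mostly through its engineered MSC level. Birc5 stood at 0 in PBS, 142 CPM in native MSC (78 cells) and 36.9 in engineered MSC. Top2a stood at 5.0, 149 and 33.7 CPM and Mki67 at 1.43, 81.7 and 20.1 CPM. The native MSC level was the highest for both. Tk1, thymidine kinase, stood at 0.714, 23.8 and 34.5 CPM, and Ccnd1 at 278, 50.7 and 119 CPM. Cluster 24 held 68.1% of the PBS, 30.8% of the native MSC and 78.4% of the engineered MSC cells, and cluster 27 the others. The dividing share was 5.93%, 16.7% and 18.9% with all UMIs. After thinning 0 of 112, 5 of 73 and 5 of 86 cells were dividing, and 0 of 112 allows a share of up to 2.68%.

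Each member's highest lineage depended on the library. Lymphoid cells were the highest lineage for 11 of 25 mitotic members in PBS, 14 in native MSC and 13 in engineered MSC, and for 0, 10 and 4 of the 13 S-phase members. Macrophage-like cells were highest for 3, 0 and 8 S-phase members, and Kupffer-cell-like cells for 5 in PBS. Ccnd1 was highest in plasmacytoid-dendritic-like cells in each library, at 828, 858 and 1028 CPM, although these had almost no mitotic members.

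**Figure D5:**
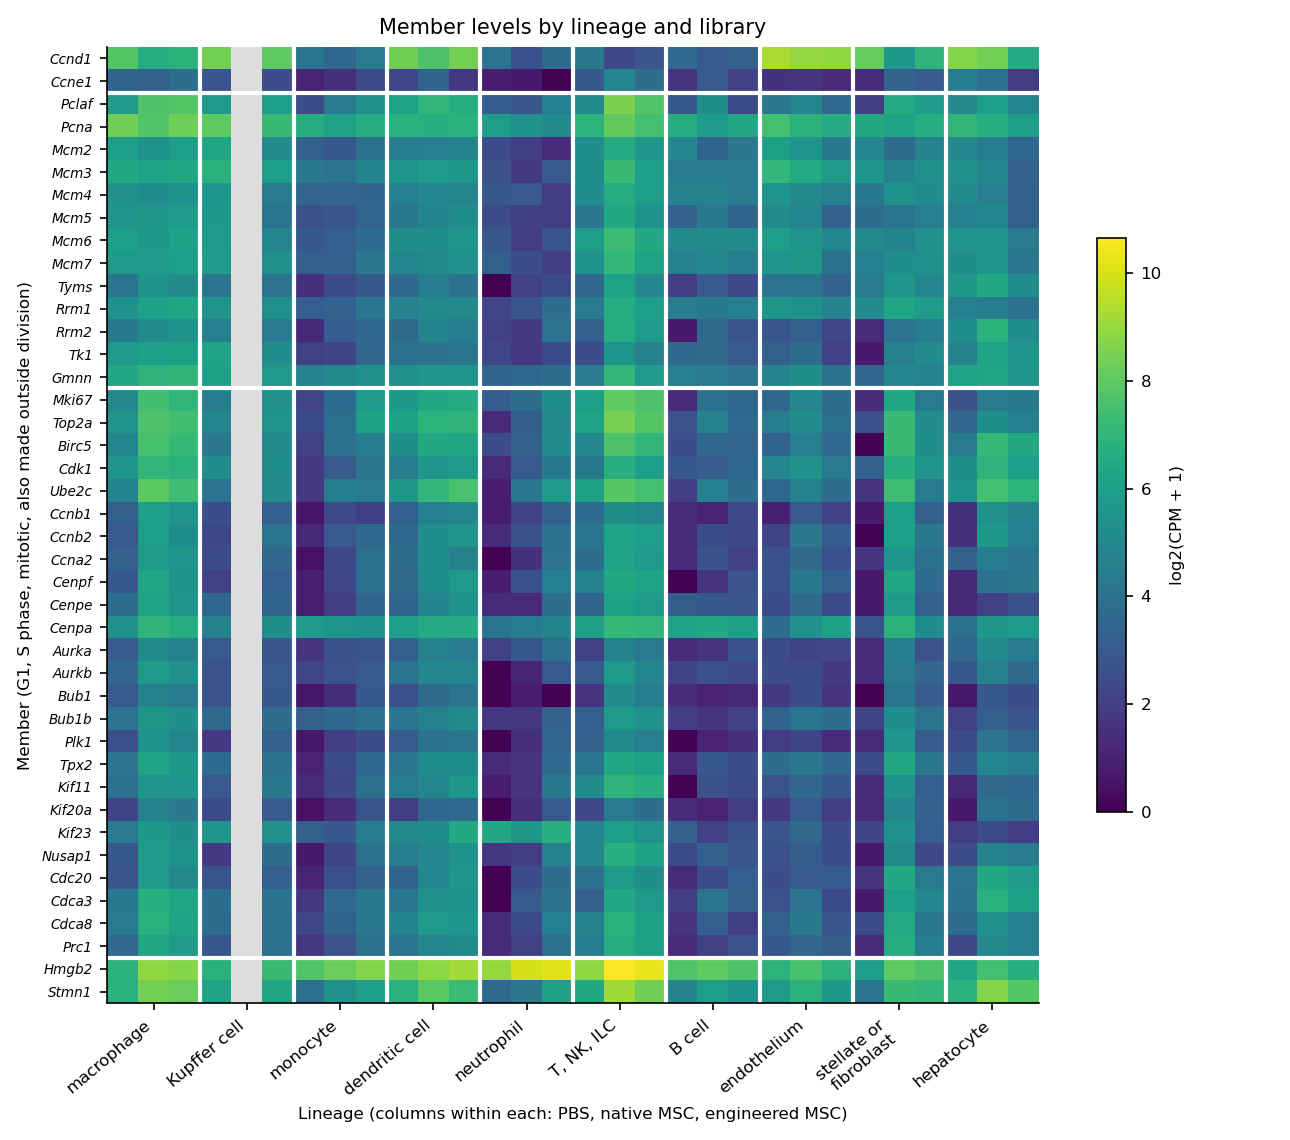
Level of each of the 42 members (rows, grouped by role) in 10 lineages (columns, each with PBS, native MSC and engineered MSC from left to right), as log2(CPM + 1). Grey marks a lineage with too few cells in that library, and the mitotic rows are bright in macrophage-like and lymphoid cells of the MSC libraries and in stellate-or-fibroblast-like cells of native MSC.

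Other genes of the cell cycle came from lists of 30 S-phase and 49 mitotic genes outside the 42. They were on the side of the members in macrophage-like, lymphoid and hepatocyte-like cells. The other mitotic genes were also above PBS in dendritic-like cells, with medians of 0.69 in native and 1.17 in engineered MSC. In monocyte-like cells these medians were 0.92 and 1.90, and in stellate-or-fibroblast-like cells of engineered MSC 2.75. They differed more from the members in Kupffer-cell-like, endothelium-like and B-cell-like cells. In macrophage-like cells of native MSC 46 of 49 other mitotic genes were over 2-fold above PBS (median 1.92) and 1 of 30 other S-phase genes (median 0.19), against 7.9% of all genes. In engineered MSC 41 of 49 and 1 of 30 were, against 8.35%. The spindle gene Hmmr stood at 6.45, 50.3 and 35.3 CPM and Aspm at 2.67, 23.3 and 13.6 CPM there. In lymphoid cells of native MSC the medians were 2.20 for S phase and 2.16 for mitosis, and in hepatocyte-like cells of engineered MSC -0.84 and 1.29. In Kupffer-cell-like cells of engineered MSC the median of the other mitotic genes was 0.21, and 2 of 44 measured were over 2-fold above PBS, against 13.3% of genes, where the members had 0.67 and 8 of 25. In endothelium-like cells it was 0.21 in native MSC, where the members had 0.97, and -0.34 in engineered MSC with 30 of 46 measured lower. In B-cell-like cells of engineered MSC it was 0.36 over 17 measured, where the 19 members measured had 1.41. That median is the value of Cenpf, with 27 UMIs in engineered MSC and 0 in PBS, where 3 counts stood in for the 0. Of these 19 members 6 had an interval above 1 and 13 had one that held 1. A member enters this count mostly through its engineered MSC UMIs, so the 1.41 is an uncertain value. Mcm10, a replication initiator, was an exception in hepatocyte-like cells, at 7.18, 15.8 and 79.8 CPM, 11.1-fold (6.17 to 22.4) above PBS in engineered MSC.

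Inhibitors of the cell cycle, a list of 11 genes, did not go one way in all lineages. Against PBS, in engineered MSC, 8 of 9 measured were higher in macrophage-like cells (median 0.79). In stellate-or-fibroblast-like cells 8 of 9 were also higher, 7 of them over 2-fold (median 1.30, against 10.6% of genes). In lymphoid cells of native MSC 4 were higher and 5 lower (median -0.38). In macrophage-like cells Cdkn2d stood at 8.49, 60.2 and 36.8 CPM and Cdkn2c at 10.1, 44.0 and 36.9 CPM, in the order of the mitotic members. Cdkn1a (p21), the inhibitor induced by p53, stood at 167, 120 and 145 CPM there. In endothelium-like cells Cdkn1a stood at 186, 126 and 70.9 CPM, 2.63 times lower (2.42 to 2.86) in engineered MSC than in PBS, and in hepatocyte-like cells at 179, 199 and 93.0 CPM. Cdkn1c (p57) in endothelium-like cells went the other way, at 4.85, 37.8 and 51.9 CPM, 10.7-fold (7.75 to 15.2) above PBS in engineered MSC. Among the D-type cyclins of macrophage-like cells, Ccnd3 stood at 29.8, 65.6 and 64.6 CPM while Ccnd1 was lower after MSCs.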

How the data were processed

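Mouse liver cells in 3 libraries, 1 per group, were measured with 10x 3′ v3.1 chemistry, per the labels' protocols. The matrices the authors deposited hold raw counts, as UMIs per gene and barcode, after barcode filtering. They were made with Cell Ranger 7.1.0 on GRCm39 per the submitters' processing notes. Whether free RNA was removed is not given in the sources used here.

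Barcodes with under 200 genes, under 500 UMIs or over 20% mitochondrial UMIs were dropped. Doublets were called by Scrublet score at 0.8% per 1000 barcodes (923 in PBS, 1054 in native MSC and 973 in engineered MSC). The 3 libraries were clustered together, with no correction, on 2000 variable genes without 147 listed cell cycle genes and 592 correlated with them (r above 0.15), with 30 components, 15 neighbours and Leiden resolution 1 (scanpy 1.11.5, leidenalg 0.10.2, igraph 0.11.9). Clusters were named from marker lists and are called as resembling a type.

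UMIs were summed per lineage and library and scaled to CPM. Ratios have exact conditional binomial and shares exact binomial (Clopper-Pearson) 95% intervals. Lineages needed 100 cells and genes 20 UMIs in a pair of libraries, and 2-fold is a size, not a test. An upper limit at 0 uses 3 counts. Ratio intervals were tested on simulated counts drawn independently for each gene from summed macrophage-like profiles, and share intervals on binomial draws. That check cannot show whether ratio intervals hold where a few cells carry most UMIs of a gene, because it drew no single cells. Members with values were the 9 named by rule (Mki67, Top2a, Cdk1, Pcna, Mcm5, Rrm2, Hmgb2, Stmn1, Ccnd1) and up to 5 per direction with the interval bound furthest from 1, and others named were chosen after their values were seen. Members and lists were chosen with earlier results of these data known. Promoters come from RefSeq (GRCm38.p6), another build than that of the counts, and were used for sequence only. The alternatives tried are in the closing section.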

Additional observations from a re-analysis of the deposited data

How the results depend on the processing

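With 1 library per group no replicate can be left out, and depth limits what the shares can show. No paired analysis was possible because each group has 1 library and no test was made. Values follow the order PBS, native MSC, engineered MSC for shares, and medians are log2 ratios. Of the share values in all kept cells, macrophage-like, lymphoid and hepatocyte-like cells, 86 stayed within their counting interval and 50 moved, and of the medians 180 stayed and 32 moved. Single-cluster alternatives were chosen after seeing the data. The cause of a change was not tested unless it is given.

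With at least 2 mitotic members the dividing shares were 17.0%, 24.3% and 18.9% in all kept cells, 38.9%, 52.7% and 47.6% in macrophage-like, 7.24%, 33.5% and 21.8% in lymphoid and 12.5%, 37.2% and 14.4% in hepatocyte-like cells. With at least 5 they were 4.28%, 8.20% and 5.13%, 12.5%, 27.5% and 25.6%, 21.6% and 8.91% in native and engineered MSC lymphoid cells, and 3.69%, 19.2% and 4.31%. Thinned to 1500 UMIs they were 1.76%, 5.86% and 4.43%, then 3.65%, 20.2% and 15.8%, then 17.1% and 8.28%, and 14.9% and 6.07% in native and engineered MSC hepatocyte-like cells. Engineered MSC was between PBS and native MSC under these settings. Doublets kept gave 15.2% and 10.4% in all cells of native and engineered MSC and 42.7% in native MSC macrophage-like cells. The latter were 42.5% with a mitochondrial limit of 10% and 46.5% with none.

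In cluster 3 alone the macrophage-like share was 5.71% in PBS, and thinned 20.4% and 15.9% in native and engineered MSC, with mitotic medians of 3.88 and 3.38 and S-phase medians of 1.23 and 1.38. In cluster 14 alone the engineered MSC lymphoid share was 30.8%, and thinned shares were 19.7% and 24.2%. Its mitotic median was 2.6 against PBS and 0.23 against native MSC, and its S-phase median -0.091 against native MSC. In cluster 9 alone the engineered MSC hepatocyte-like share was 33.3%, and thinned shares were 14.6% and 22.8%. Its mitotic medians were 3.33 against PBS and 1.06 against native MSC, and its S-phase medians -0.14 and -0.12.

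With cell cycle genes kept in the clustering, macrophage-like cells kept 81.0%, 34.5% and 41.0% of their dividing cells and dendritic-like cells 34%, 25% and 46.3%, while hepatocyte-like cells kept 100%. Macrophage-like shares were 22.1%, 31.2% and 22.6%. Mitotic medians were 0.76 and 0.39 for native and engineered MSC, S-phase medians -0.46 and -0.44, and -0.011 between them. Single log2 ratios then turned below 0 for Bub1 (-0.044), Cdk1 (-0.14), Kif11 (-0.65) and Kif23 (-0.62) in native MSC and Cdk1 (-0.61), Kif11 (-0.14), Top2a (-0.019) and Tpx2 (-0.24) in engineered MSC. The dendritic-like mitotic median of engineered MSC was -0.29, and lymphoid ones were 2.59 and 2.07. With the lineage taken from each cell's own markers, the B-cell-like mitotic median of engineered MSC was -0.26, lymphoid ones were 2.59 and 2.13, and that of engineered against native hepatocyte-like cells was -0.79. Leiden resolution 2 gave lymphoid mitotic medians of 2.58 and 2.01. Doublets kept gave 2.16 against PBS in engineered MSC and -0.31 against native MSC. With each cell counted alike, the mitotic medians were 2.59 in native MSC lymphoid cells, -0.70 between MSC libraries there, and 1.70 and -0.63 for engineered macrophage-like cells against PBS and native MSC, and their S-phase median was 0.033. A minimum of 500 genes gave -0.37 there. Scaled to the median gene, engineered against native hepatocyte-like cells gave -0.80. Using no minimum count, or scaling without mitochondrial, haemoglobin and free hepatocyte transcripts, moved none of these values.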
